A study of Mus musculus with 3 samples.

Results

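The Hedgehog pathway was followed through 9 genes. They were chosen by symbol from the 32285 genes of the count tables, with earlier results of these data known. They were the ligand *Shh*, the receptors *Ptch1* and *Smo*, the ligand-binding inhibitor *Hhip*, the transcription factors *Gli1*, *Gli2* and *Gli3*, and the forkhead factors *Foxf1* and *Foxf2*. All 9 had UMIs in each library. Soft palate, taken from the posterior part of the palatal region of C57BL/6 embryos at E14.5, was profiled in 2 control libraries and 1 mutant library by droplet single-cell RNA-seq that counts transcript 3′ ends by unique molecular identifier (UMI). The mutant was labelled Osr2-Cre;Alk5fl/fl, where *Alk5* is the older name of the TGF-β receptor gene *Tgfbr1*, and the study describes its controls as *Tgfbr1* fl/fl or fl/+ littermates, without a genotype for each library in the labels. Osr2-Cre is active in the palatal mesenchyme and, by the study's reporter staining, not in the myogenic cells, and since 3′ counts cannot show the loss of a floxed exon, the deletion was not checked in these data. The labels do not say how many embryos went into a library, and with 1 mutant library the genotype cannot be told apart from any other difference between libraries.

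In Hedgehog signaling a secreted ligand binds PTCH1 and thereby releases its block on the membrane protein SMO, after which GLI proteins leave their repressor forms and activate transcription. *Ptch1*, *Hhip* and *Gli1* are themselves transcribed in response, the former pair as negative feedback and *Gli1* as an activator, so that their transcripts serve as a readout of the pathway. In the developing palate SHH is known to come from the epithelium and to act on the mesenchyme, where *Foxf1* and *Foxf2* depend on it and *Foxf2* restrains *Fgf18*.

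Cells were assigned to types by counting how many genes of a marker list had a UMI in the cell, and none of the 9 genes was in a marker list. Of 13313 cells, 131, 162 and 278 were epithelial and 1140, 1945 and 3480 mesenchymal in control 1, control 2 and the mutant. No lineage gate was passed by 278, 949 and 2108 cells. The gates count detected markers and so depend on depth, which differed between the libraries. Within the mesenchyme, 158, 95 and 110 cells were perimysial (*Hic1*, *Ebf2*, *Agtr2*, *Meox1*), 242, 620 and 508 midline (*Lsp1*, *Wnt16*, *Sostdc1*), 30, 79 and 229 tendon-like by *Scx*, and 103, 42 and 356 osteogenic (*Sp7*, *Alpl*, *Ibsp* and 4 further genes), and 430, 860 and 1676 passed none of these and are called the other mesenchymal cells. Genes outside the marker lists went the way of the names for the epithelial (*Krt8*, *Krt18*, *Cldn6*), perimysial (*Aldh1a2*, *Tbx15*, *Pitx1*) and midline (*Meox2*, *Tbx22*) cells in all 3 libraries. Some margins were narrow. *Tbx15* was at 25.0, 20.5 and 9.60 CPM in the perimysial against 21.8, 16.1 and 5.02 CPM in the other mesenchymal cells. *Meox2* was 1.83-, 1.18- and 1.69-fold higher in the midline than in the other mesenchymal cells. The later tendon gene *Tnmd* had no UMI in the tendon-like cells of either control, and the later bone gene *Dmp1* had none in the osteogenic cells of either control. The bone matrix gene *Spp1* was at 84.0, 0 and 2.20 CPM in the osteogenic cells against 15.2, 0.712 and 2.69 CPM in the other mesenchymal cells, and so lay above them in control 1 alone. *Fmod*, also outside the marker lists, was at 4.56, 11.2 and 10.7 CPM in the tendon-like against 2.84, 6.64 and 4.41 CPM in the other mesenchymal cells. *Dlx5* was at 125, 47.5 and 61.2 CPM in the osteogenic against 79.9, 13.1 and 17.1 CPM in the other mesenchymal cells. Both went the way of the names in all 3 libraries. The names rest mainly on the markers of their gates. Control 1 stood apart: 699 of its 2816 barcodes failed the filters against 246 of 4067 in control 2 and 579 of 8690 in the mutant, it alone held neutrophils (51 cells), and 49.7% of its mesenchymal cells carried a UMI of an epithelial marker, against 21.2% and 7.39%. Neuronal cells numbered 12, 7 and 265. The libraries shared 18 to 49 cell barcodes pair by pair.

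Upstream sequences of *Hhip* and *Foxf2* are shown because these genes moved together below, both higher in midline and both lower in osteogenic mesenchyme. Each is the 250 bases before the RefSeq start (GRCm38.p6), 5′ to 3′ on the strand of the gene, at chr8:80058009-80058258 on the minus strand for *Hhip* and at chr13:31625566-31625815 on the plus strand for *Foxf2*, and capitals mark the 6-base core of the GLI site on either strand (CCACCC or GGGTGG).
Hhip: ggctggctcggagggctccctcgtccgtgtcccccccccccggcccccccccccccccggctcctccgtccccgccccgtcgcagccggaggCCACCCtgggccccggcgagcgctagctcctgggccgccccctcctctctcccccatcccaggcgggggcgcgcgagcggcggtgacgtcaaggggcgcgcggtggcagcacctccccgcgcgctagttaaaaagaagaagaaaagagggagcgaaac
Foxf2: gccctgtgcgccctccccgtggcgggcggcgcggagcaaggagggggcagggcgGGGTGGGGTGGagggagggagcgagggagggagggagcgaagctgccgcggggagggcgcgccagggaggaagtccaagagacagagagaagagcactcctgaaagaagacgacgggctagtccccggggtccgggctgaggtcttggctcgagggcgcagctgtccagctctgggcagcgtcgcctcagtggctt
*Hhip* held the core 1 time and *Foxf2* 2 times. Of the 6 genes with a sequence in the table (*Gli2*, *Smo*, *Hhip*, *Gli3*, *Foxf2* and *Ptch1*), 5 held it, all but *Ptch1*, against 28.1% of 32851 upstream windows, and none held the whole consensus GACCACCCA, which 0.225% of all windows held. The windows of the 6 genes were 67.2% to 78.4% G and C against a median of 52.4%, and the core, which lies within the consensus and also within other C-rich motifs, is a matter of letters here and not a mapped site. *Shh*, *Gli1* and *Foxf1* had no entry. By the GENCODE annotation of GRCm38, *Hhip* spans 79965851 to 80058006 on chromosome 8, *Foxf2* 31625816 to 31631403 on chromosome 13, and *Shh* 28456815 to 28467256 on chromosome 5.

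*Shh* was counted in the epithelium. Its level, given as counts per 1000000 after adding up the UMIs of all cells of one type in a library (CPM), was 20.3 in the epithelial cells of control 1, 21.9 in control 2 and 16.3 in the mutant, from 32, 31 and 32 UMIs. In mesenchymal cells it was 0.992, 1.07 and 0.401 CPM, and no epithelial level overlapped a mesenchymal one. The difference was 4.60 ± 0.37 (log2, SE, 3 library pairs, edgeR's quasi-likelihood test with the library as a block, Benjamini-Hochberg adjusted p = 3.83e-09 over 16335 genes). Of the mesenchymal cells with a *Shh* UMI, 6 of 9, 7 of 8 and 7 of 8 also carried a UMI of an epithelial marker. Among all mesenchymal cells 49.7%, 21.2% and 7.39% did, so the count of control 1 is near its base rate. No *Shh* UMI was found in any myeloid, glial or mural cell. In other types it was found in 1 myogenic and 1 endothelial cell of control 2 and, with 2 UMIs, in 1 neuronal cell of the mutant.

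Within the epithelium *Shh* lay in the cells without *Krt6a*, a keratin of the periderm, the flat outer layer. The *Krt6a*-negative cells, 111, 126 and 222 in number, held it at 24.3 CPM (exact 95% Poisson interval 16.6 to 34.3), 29.8 CPM (20.2 to 42.3) and 19.4 CPM (13.1 to 27.7). The 20 and 36 *Krt6a*-positive cells of the controls had 0 UMIs, which allows up to 11.7 and 8.03 CPM at 3 UMIs, and the 56 of the mutant had 2 UMIs, or 4.73 CPM (0.572 to 17.1). *Ptch1* had the same order, at 72.8, 84.6 and 81.6 CPM in the *Krt6a*-negative against 27.4, 21.4 and 28.4 CPM in the *Krt6a*-positive cells. These classes were not tested against each other, and these intervals cover counting error only.

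Few epithelial cells showed the ligand at this depth. A *Shh* UMI was found in 16.2%, 13.5% and 9.01% of the *Krt6a*-negative cells at median depths of 11021, 6812.5 and 5992.5 UMIs, and in none of the 31, 97 and 140 myeloid cells, which lack the gene, at 9231, 5760 and 5133 UMIs. A count of 0 among those myeloid cells allows shares of up to 9.68%, 3.09% and 2.14%. After each cell was thinned to 2000 UMIs, leaving out 4, 0 and 5 shallower cells, the shares were 2.80% (exact Clopper-Pearson interval 0.582 to 7.98), 7.14% (3.32 to 13.1) and 3.23% (1.31 to 6.53), with overlapping intervals in the 3 libraries. The most *Shh* UMIs in 1 epithelial cell were 5, 5 and 4.

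Cells that passed both the epithelial and the mesenchymal gate were left out of both types, and they too held *Shh*. There were 66, 200 and 266 of them, with 17.1, 22.1 and 7.50 CPM of *Shh* and median depths of 16272.5, 14513.5 and 15599.5 UMIs. Together the cells that passed the epithelial gate, alone or with another, held 82.4%, 85.8% and 82.4% of the 74, 155 and 102 *Shh* UMIs of each library. When cells of the mesenchymal and 1 other gate were counted in that other lineage instead, the difference of *Shh* was 4.31 ± 0.24 (adjusted p = 6.06e-07), but only 4 of the 9 genes were then called between epithelium and mesenchyme.

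Among the other ligands, *Ihh*, which drives bone and cartilage growth, was counted in the osteogenic cells, at 29.4, 45.1 and 29.2 CPM, and it stayed at or under 1.84 CPM in the other mesenchymal cells. It was higher in the osteogenic cells by 4.58 ± 0.33 (log2, SE, edgeR adjusted p = 1.18e-16). *Dhh*, the ligand of Schwann cell precursors, had 16 UMIs in the glial cells and 25 in the endothelial cells of the mutant and at most 2 in those of either control. Glial cells numbered 7, 26 and 110 and endothelial cells 17, 79 and 223 in control 1, control 2 and the mutant. These UMI counts therefore do not compare levels between the libraries. *Shh* in the osteogenic cells was 3.36, 2.37 and 0.941 CPM, from 4, 1 and 3 UMIs.

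**Figure D1:**
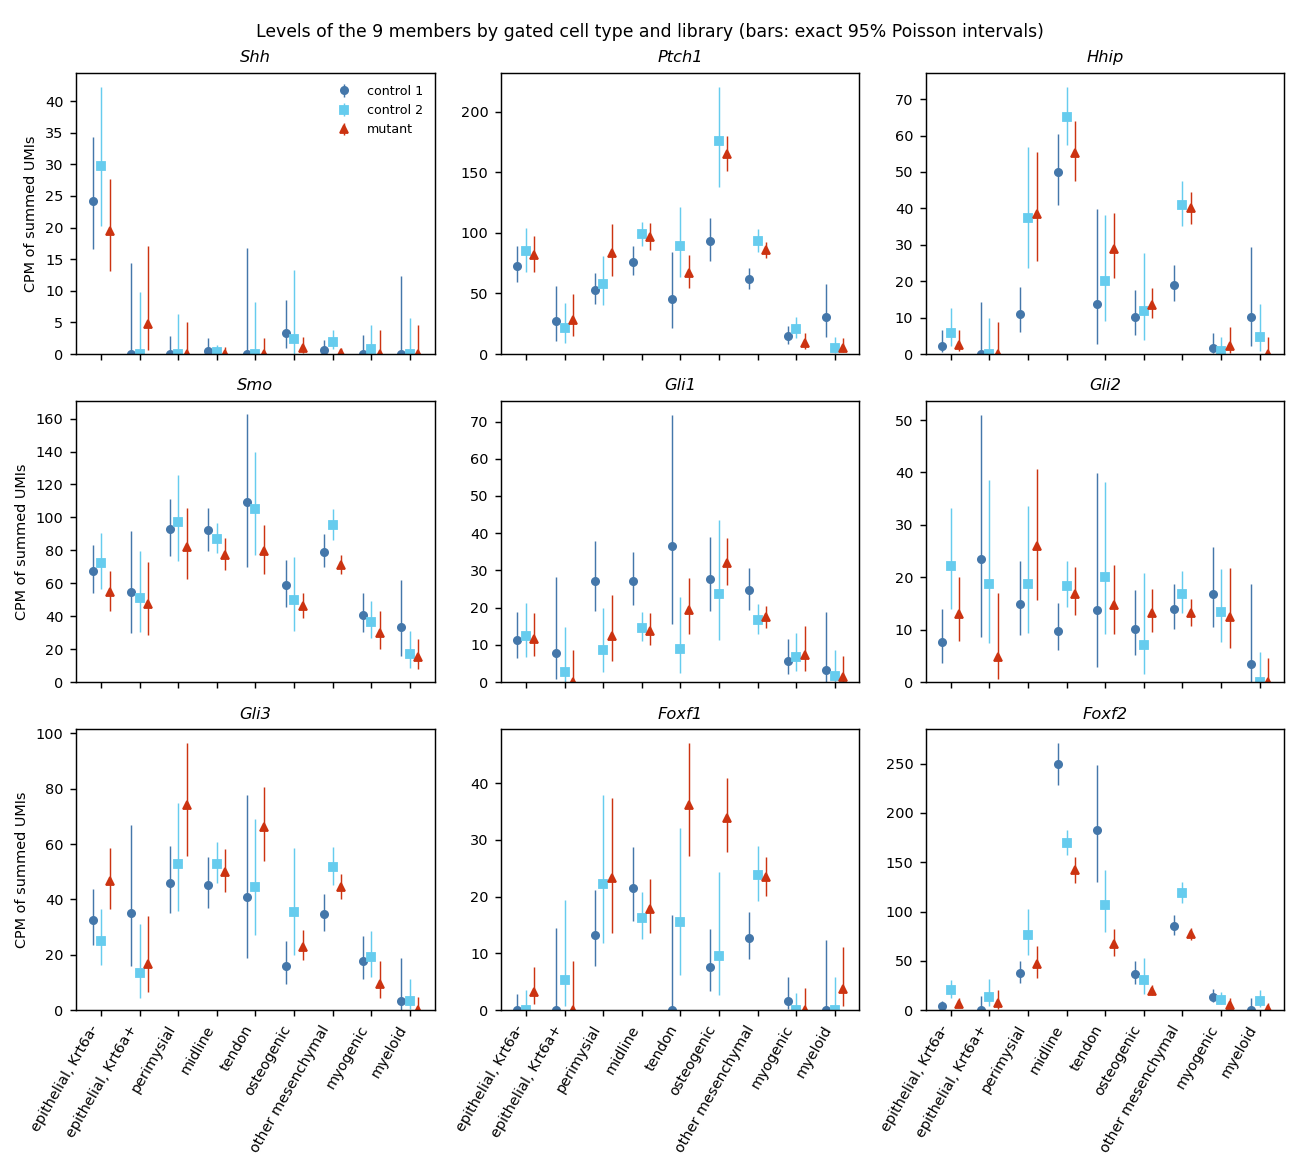
Levels of the 9 genes in CPM of summed UMIs (linear axes from 0) for 9 gated cell types, with 1 point for each library (control 1 circles, control 2 squares, mutant triangles) and bars for exact 95% Poisson intervals. *Shh* stands in the *Krt6a*-negative epithelium, *Hhip* and *Foxf2* in the midline cells, and *Foxf1* of the mutant lies at 33.9 and 36.1 CPM in the osteogenic and tendon-like cells, above both controls.

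The receivers of the signal were spread over both lineages to unequal degrees. Of the 9 genes, 8 passed the test between epithelial and mesenchymal cells, 1 higher and 7 lower in the epithelium, where 36.2% of all genes passed it (15.8% higher and 20.4% lower). *Hhip*, which traps ligand at the cell surface, was at 1.91, 4.24 and 2.03 CPM in the epithelium and at 24.3, 46.9 and 39.7 CPM in the mesenchyme, a difference of -3.85 ± 0.27 (log2, adjusted p = 4.13e-10). With the cells of both gates counted as epithelial it was -1.04 ± 0.19 (adjusted p = 0.00236). *Ptch1*, the receptor, was at 65.4, 67.9 and 70.2 CPM in the epithelium and at 66.7, 97.2 and 107 CPM in the mesenchyme. In control 1 these levels of *Ptch1* were almost equal, and the difference of -0.45 ± 0.13 (adjusted p = 0.00863) was no longer called without control 2 (adjusted p = 0.113), without the mutant (0.176), with the cells of both gates counted as epithelial (-0.09, adjusted p = 0.484), with 1 more marker required (0.109) or by DESeq2 (0.125).

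*Gli1*, the activator made in response to the signal, was at 10.8, 9.90 and 9.15 CPM in the epithelium and 25.1, 15.7 and 21.1 CPM in the mesenchyme. Each mesenchymal level was above each epithelial one, with a difference of -1.12 ± 0.22 (adjusted p = 0.000434), which was -0.43 (adjusted p = 0.061) with the cells of both gates counted as epithelial. *Gli3*, which is mainly a repressor in the absence of ligand, differed by -0.67 ± 0.17 (adjusted p = 0.00388), and this call was lost without control 2 (-0.38, adjusted p = 0.158), with the cells of both gates counted as epithelial (-0.11, adjusted p = 0.514), by DESeq2 (0.0561) and without the block (0.0694). *Smo*, the transducer, differed by -0.54 ± 0.12 (adjusted p = 0.00119), and by -0.23 (adjusted p = 0.0889) with the cells of both gates counted as epithelial. *Gli2*, the main activator at the start of the response, was at 10.2, 21.2 and 11.2 CPM in the epithelium and 13.9, 19.1 and 17.5 CPM in the mesenchyme, groups that overlapped (-0.35 ± 0.22, adjusted p = 0.244).

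Both forkhead genes were mesenchymal. *Foxf1* had 0, 2 and 5 UMIs in the epithelium against 142, 263 and 674 in the mesenchyme, where its levels were 14.1, 21.5 and 27.0 CPM. *Foxf2* was at 117, 128 and 85.1 CPM in the mesenchyme and at 3.18, 18.4 and 6.61 CPM in the epithelium. Their differences were -3.97 ± 0.38 (adjusted p = 4.38e-08) for *Foxf1* and -3.67 ± 0.24 (adjusted p = 1.39e-10) for *Foxf2*. With the cells of both gates counted as epithelial they were -1.20 ± 0.18 and -1.21 ± 0.19, still called (adjusted p = 0.000791 and 0.000956). A UMI of at least 1 of 6 mesenchymal markers was carried by 46.6%, 32.1% and 29.1% of epithelial cells. These markers summed to 42.6, 52.3 and 70.7 CPM there, against 938, 986 and 1036 CPM in the mesenchyme. Whether such UMIs were the epithelial cells' own or came from mesenchymal cells was not tested. Nor was their part in the low epithelial levels.

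The 3 co-receptors that help cells bind ligand were lower in the epithelium, as *Ptch1*, *Smo* and *Hhip* were: *Gas1* by -2.51 ± 0.18, *Boc* by -1.63 ± 0.24 and *Cdon* by -0.52 ± 0.20 (adjusted p = 7.76e-10, 1.27e-05 and 0.0458). Of 5 genes for making and releasing the ligand, *Scube3* was higher in the epithelium (1.06 ± 0.29, adjusted p = 0.0062), *Scube1* was lower (-3.25 ± 0.42, adjusted p = 3.59e-06), and *Hhat*, *Disp1* and *Scube2* were not called. Of 14 genes that carry the signal inside the cell, *Csnk1a1* was higher, *Evc*, *Prkaca*, *Kif3a*, *Spop* and *Arl13b* were lower and 8 were not called, *Sufu* and *Kif7* among them. Over all genes 15.8% were higher and 20.4% lower in the epithelium.

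The genes of the facial mesenchyme that lie downstream of the pathway mostly followed the lineage. Of 9 such genes 6 were lower in the epithelium, *Foxf1*, *Foxf2*, *Foxd1*, *Foxl1*, *Ccnd1* and *Bcl2*, and *Ccnd2* was higher. Among all genes 20.4% were lower and 15.8% higher there. *Foxl1* had no UMI in the epithelium of any library. *Ccnd1*, a cyclin of the G1 phase, was at 48.9, 48.1 and 65.6 CPM in the epithelium and 153, 169 and 179 CPM in the mesenchyme. The palate genes *Meox2*, *Tbx22*, *Barx1*, *Mn1*, *Shox2*, *Bmp4* and *Alx1* were lower in the epithelium as well. *Fgf18* was lower in the epithelium by -2.30 ± 0.32 (adjusted p = 8.43e-06). Early response and heat shock genes, which also move with dissociation, differed too, *Fos* and *Egr1* being lower and *Jun* and *Hspa1b* higher in the epithelium, and their part in the differences above was not tested.

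**Figure D2:**
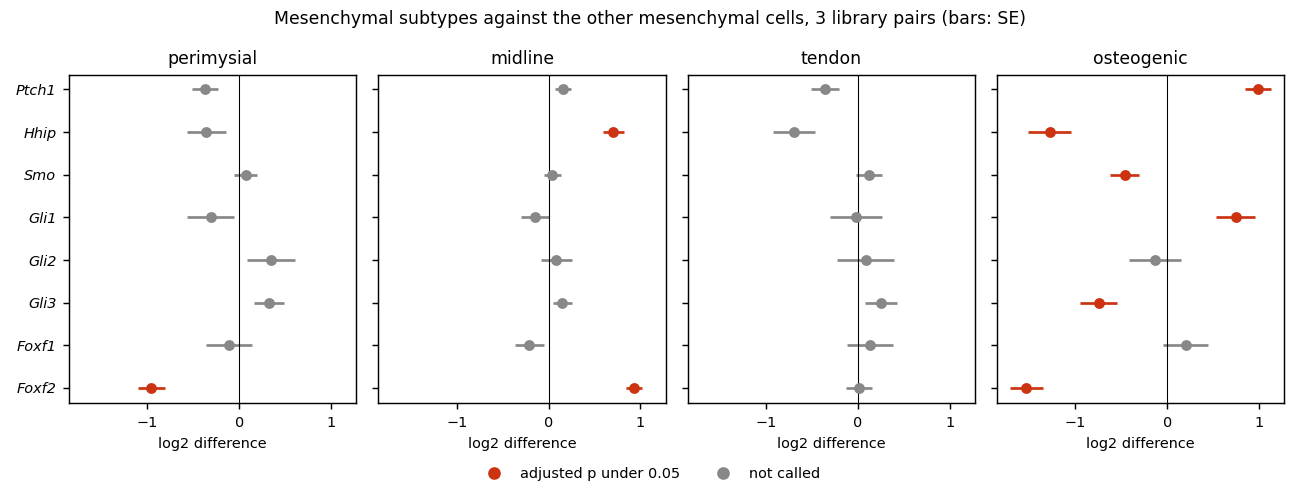
Differences (log2, horizontal axis) of each mesenchymal subtype from the other mesenchymal cells for 8 genes. Bars are the SE of the edgeR fit of 3 library pairs, and red marks an adjusted p under 0.05. *Foxf2* runs from -1.53 in the osteogenic to 0.93 in the midline cells, and *Ptch1* and *Gli1* are called, and higher, in the osteogenic cells alone.

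Which part of the mesenchyme carried the response was asked by setting each subtype against the other mesenchymal cells of its library. The 4 comparisons share these reference cells and are therefore not independent of each other. *Shh* was fitted in each and called in none, and no subtype held more than 4 of its UMIs in a library.

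Osteogenic cells had more *Ptch1* and *Gli1* and less *Hhip* and *Foxf2* than the other mesenchymal cells. In this comparison 6 of the 9 genes passed the test, 2 higher, where 7.63% of all genes were higher, and 4 lower, where 6.91% were lower. By DESeq2 only *Ptch1*, *Hhip* and *Foxf2* were called. The 7 mural markers summed to 63.8, 176 and 262 CPM in the osteogenic cells against 35.1, 35.4 and 40.9 CPM. The 8 neuronal markers summed to 141, 87.9 and 128 CPM against 96.0, 39.2 and 67.6 CPM. Epithelial, myogenic, glial, chondrocyte and erythroid markers were lower in each library, and endothelial, myeloid and neutrophil markers went both ways. The part of these levels in the differences was not tested. *Ptch1* was at 93.2, 176 and 165 CPM in the osteogenic cells and at 61.6, 93.0 and 85.8 CPM in the other mesenchymal cells of the same libraries. It was higher in each library, by 1.51- to 1.92-fold in CPM, and by 0.99 ± 0.14 in the fit (log2, adjusted p = 2.03e-07). *Gli1* was at 27.7, 23.7 and 32.0 CPM against 24.6, 16.6 and 17.4 CPM, higher within each library although the groups overlapped. In control 1 *Gli1* was higher still in the tendon-like cells, at 36.5 CPM from 8 UMIs. The osteogenic difference was 0.75 ± 0.21 (adjusted p = 0.00923), a call that rested on the mutant, without which the difference was 0.43 ± 0.34 (adjusted p = 0.624).

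*Hhip*, although it answers to the same signal, went the other way in these cells. Its levels were 10.1, 11.9 and 13.5 CPM in the osteogenic and 19.0, 41.1 and 40.0 CPM in the other mesenchymal cells, from 12, 5 and 43 UMIs in the former, and they did not overlap. The difference was -1.28 ± 0.23 (adjusted p = 3.46e-05), and without the mutant -1.10 ± 0.39 (adjusted p = 0.0726). *Foxf2* was at 37.0, 30.9 and 19.8 CPM against 85.6, 119 and 77.3 CPM, again without overlap and lower in 3 of 3 libraries (-1.53 ± 0.18, adjusted p = 1.21e-09). *Gli3* (-0.75 ± 0.20, adjusted p = 0.00464) and *Smo* (-0.46 ± 0.16, adjusted p = 0.0394) were lower as well. Both of the latter lost their call when the mutant or control 1 was left out, at adjusted p of 0.209 and 0.0705 for *Gli3* and 0.328 and 0.0935 for *Smo*, and *Smo* also did without control 2 (0.14). *Gli2* (-0.13 ± 0.28, adjusted p = 0.833), *Foxf1* (0.20 ± 0.24, adjusted p = 0.684) and *Shh* (1.70 ± 0.89, adjusted p = 0.227) were not called.

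The co-receptors were lower in the osteogenic cells too, as *Hhip* was. *Gas1* was at 39.5, 26.1 and 18.8 CPM against 211, 195 and 74.0 CPM (-2.16 ± 0.17, adjusted p = 3.01e-15), *Cdon* was lower by -1.64 ± 0.35 (adjusted p = 0.000465) and *Boc* by -0.78 ± 0.26 (adjusted p = 0.0301). *Ccnd1* was higher by 1.03 ± 0.15 and *Fgf18* lower by -3.10 ± 0.59, the latter from 1, 0 and 3 UMIs in the osteogenic cells (adjusted p = 4.67e-07 and 7.5e-05). Of 14 intracellular genes *Kif3a* and *Gsk3b* were lower and 12 were not called, where 6.91% of all genes were lower and 7.63% higher. All 4 posterior palate genes (*Meox2*, *Tbx22*, *Barx1*, *Mn1*) were lower in these cells, and so were the anterior genes *Shox2* and *Bmp4* and the forkhead gene *Foxd1*. Of the stress genes *Jun* was lower and *Fos* higher, and their part in these differences was not tested.

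Midline mesenchyme carried *Foxf2* and *Hhip*. These were the 2 of 9 genes that passed the test there, both higher, against 3.56% of all genes in either direction and 1.74% higher. *Foxf2* was at 249, 170 and 142 CPM in the midline cells, each above the 85.6, 119 and 77.3 CPM of the other mesenchymal cells. It was higher by 1.43- to 2.91-fold in CPM within libraries, and by 0.93 ± 0.09 in the edgeR fit (adjusted p = 3.57e-18). *Hhip* was at 50.01, 65.0 and 55.3 CPM against 19.0, 41.1 and 40.0 CPM, a difference of 0.71 ± 0.11 (adjusted p = 2.7e-07), and every midline level was above every reference level. *Ptch1*, at 76.2, 98.7 and 96.4 CPM, and *Gli1*, at 27.1, 14.6 and 13.8 CPM, overlapped their references and were not called (0.15 ± 0.09, adjusted p = 0.529, and -0.15 ± 0.16, adjusted p = 0.819). *Gli2* (0.08 ± 0.17), *Gli3* (0.15 ± 0.11), *Smo* (0.04 ± 0.09) and *Foxf1* (-0.21 ± 0.16) were not called either, at adjusted p of 0.927, 0.659, 0.931 and 0.687. By DESeq2 *Hhip* alone was called of the 9 (adjusted p of *Foxf2* = 0.0705).

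In cells rather than UMIs, *Foxf2* was found in 69.4%, 58.1% and 54.7% of midline cells, and after thinning to 2000 UMIs in 36.8% (30.7 to 43.2), 28.1% (24.6 to 31.8) and 24.7% (21.0 to 28.7). Osteogenic cells showed it in 23.3%, 23.8% and 13.8%, and thinned alike in 2.91%, 7.14% and 4.79%, and myeloid cells in 0 of 28, 1 of 91 and 1 of 137. The posterior palate genes *Tbx22* (1.05 ± 0.14), *Meox2* (0.59 ± 0.08) and *Mn1* (0.29 ± 0.08) were higher in the midline cells too, as was the anterior gene *Bmp4* (0.52 ± 0.09), with adjusted p of 2.25e-09, 9.74e-09, 0.0211 and 3.72e-06. No intracellular pathway gene of 14 was called, against 3.56% of all genes, and the stress genes *Fos* and *Egr1* were lower in the midline cells.

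Perimysial cells, which lie around the muscle, had less *Foxf2* and more of 2 co-receptors. *Foxf2* was at 37.4, 76.7 and 46.6 CPM against 85.6, 119 and 77.3 CPM, below the reference in every library, by -0.96 ± 0.15 (adjusted p = 7.64e-07). It was the only one of the 9 genes called there, against 5.57% of all genes, and 3 had an unadjusted p under 0.05. *Cdon* was at 60.04, 35.8 and 23.3 CPM against 15.8, 20.9 and 14.9 CPM (1.14 ± 0.22, adjusted p = 7.74e-05) and *Gas1* at 530, 325 and 132 CPM against 211, 195 and 74.0 CPM (0.91 ± 0.10, adjusted p = 2.78e-11). *Fgf18* was higher by 1.21 ± 0.25 (adjusted p = 0.000279), *Foxd1*, another forkhead gene of the pathway, by 0.65 ± 0.17 (adjusted p = 0.00619), and *Ccnd1* was lower by -0.46 ± 0.11 (adjusted p = 0.00369). *Foxf1*, at 13.3, 22.2 and 23.3 CPM, stayed close to the reference levels of 12.6, 23.7 and 23.4 CPM (-0.11 ± 0.25, adjusted p = 0.924). *Ptch1* (-0.37 ± 0.14, adjusted p = 0.128) and *Gli3* (0.33 ± 0.16, adjusted p = 0.327) were the other 2 genes at an unadjusted p under 0.05. *Hhip* (-0.36 ± 0.21), *Gli1* (-0.31 ± 0.26), *Gli2* (0.35 ± 0.26) and *Smo* (0.07 ± 0.13) had adjusted p of 0.452, 0.666, 0.621 and 0.898. The anterior gene *Shox2* and the stress gene *Egr1* were higher and *Bmp4* was lower.

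In tendon-like cells none of the 9 genes was called, against 1.73% of all genes, with 2 at an unadjusted p under 0.05 and 0 by DESeq2. Those 2 were *Hhip*, at 13.7, 20.1 and 28.8 CPM and below the reference in each library (-0.69 ± 0.23, adjusted p = 0.0926), and *Ptch1* (-0.36 ± 0.15, adjusted p = 0.291). *Gli1* (-0.02 ± 0.28), *Gli2* (0.08 ± 0.31), *Gli3* (0.25 ± 0.17), *Smo* (0.12 ± 0.14), *Foxf1* (0.13 ± 0.25) and *Foxf2* (0.01 ± 0.14) had adjusted p from 0.668 to 0.992. *Fgf18* (1.20 ± 0.32, adjusted p = 0.0155) and *Scube1* (1.35 ± 0.32, adjusted p = 0.00317) were higher there. The tendon-like cells of control 1 numbered 30, and a *Foxf2* level of 182 CPM in them rests on 40 UMIs. *Tfap2b*- and *Eya4*-positive progenitors numbered 2, 18 and 37 and were too few for a test, with *Foxf1* at 103 CPM (95% interval 55.0 to 177) in control 2 and 56.0 CPM (32.6 to 89.6) in the mutant.

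**Figure D3:**
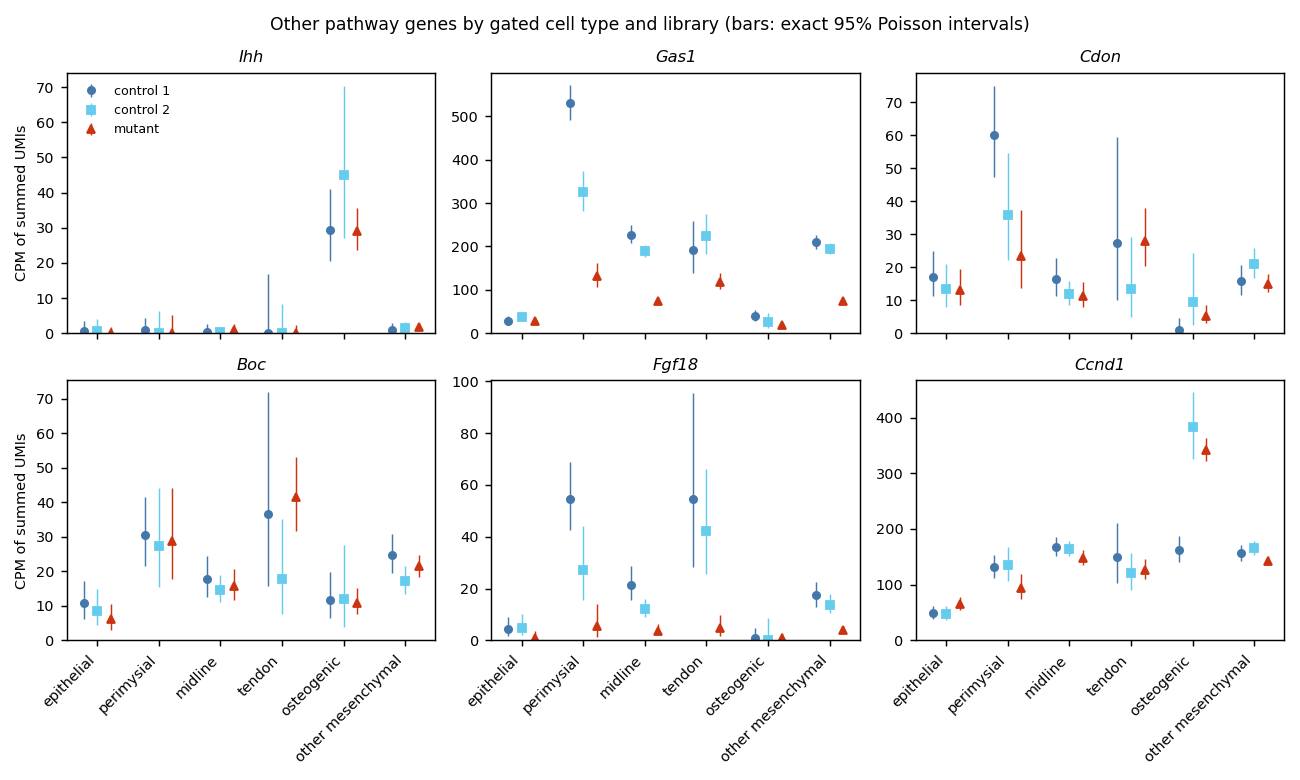
Levels in CPM of summed UMIs (linear axes from 0) of a second ligand, the co-receptor genes *Gas1*, *Cdon* and *Boc*, *Fgf18* and *Ccnd1* in the epithelium and 5 mesenchymal classes, 1 point for each library with exact 95% Poisson intervals. *Ihh* stands in the osteogenic cells, *Gas1* in the perimysial cells, and the mutant lies below both controls for *Gas1* and *Fgf18* in the perimysial, midline, tendon-like and other mesenchymal cells.

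Division crossed these classes. Dividing mesenchymal cells, 296, 602 and 993 in number, had more *Foxf2*, at 122, 156 and 103 CPM against 115, 110 and 72.9 CPM in the cells not dividing, and higher in 3 of 3 libraries (0.33 ± 0.06, adjusted p = 3.6e-06). The 7 markers of dividing cells summed to 722, 1033 and 1015 CPM in the midline cells, where *Foxf2* was higher. In the other mesenchymal cells they summed to 571, 872 and 730 CPM. The part of the midline cells in this difference was not tested. *Gli3* was higher by 0.23 ± 0.07 (adjusted p = 0.0133), a call lost without control 2 (adjusted p = 0.152), without the mutant (0.0567), with 1 more marker (0.161), by DESeq2 (0.33) and without the block (0.899). These were 2 of 9 genes, both higher, against 19.7% of all genes in either direction and 10.3% higher. *Foxf1* lay lower in dividing cells of every library, but the difference did not pass (-0.25 ± 0.11, adjusted p = 0.0978). *Ptch1* (0.15 ± 0.06, adjusted p = 0.0602), *Smo* (0.15 ± 0.06, adjusted p = 0.0599) and *Hhip* (0.21 ± 0.09, adjusted p = 0.087) did not pass either, nor did *Gli2* (0.15 ± 0.12), *Gli1* (0.05 ± 0.11) and *Shh* (0.90 ± 0.58), at adjusted p of 0.424, 0.831 and 0.317. *Foxd1*, *Boc*, *Evc*, *Prkaca* and *Tbx22* were higher and *Fgf18* and the stress genes *Fos*, *Jun* and *Hspa1a* lower in dividing cells. *Ccnd2* and *Ccnd1* were lower in dividing cells (-0.69 ± 0.05 and -0.41 ± 0.06, adjusted p = 2.39e-22 and 1.11e-08).

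Mesenchymal cells with a *Gli1* UMI, 215, 174 and 433 of them, were looked at for the other genes as a description. *Ptch1* was at 92.2, 125 and 135 CPM in these cells and at 59.6, 93.2 and 99.2 CPM in the cells without a *Gli1* UMI, so that it lay higher in each library. *Hhip* was at 32.3, 44.2 and 43.5 CPM against 22.1, 47.3 and 38.7 CPM, and so lay lower in control 2. *Foxf1* was at 14.8, 28.4 and 31.5 CPM against 13.9, 20.6 and 25.9 CPM. *Foxf2*, at 105, 123 and 84.6 CPM against 121, 129 and 85.2 CPM, lay slightly lower in each. The cells with a *Gli1* UMI were deeper, at median depths of 8616, 6954.5 and 8867 UMIs against 7729, 5266 and 5412 UMIs, and what part depth had was not tested.

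Over 33 sums of 15 cell types, the genes whose levels ran most like those of a member were listed by Pearson's r of log2(CPM + 5) among 7097 genes, as a description over sums that share libraries. For *Shh* they were the epithelial genes *Grhl2* (r = 0.971), *Cldn4*, *Kdf1*, *Dmrta2* and *Crb3* (0.961). For *Foxf2* they were *Tmem26* (0.936), *Lrrtm3*, *Grem1*, *Adam33* and *Lox* (0.890). For *Gli1* they were *Pcolce* (0.874), *Wdr86*, *Tmem45a*, *Gsc* and *Gm11627* (0.834), and for *Foxf1* *Frzb* (0.851), *Gm11627*, *Sned1*, *Mrc2* and *Col1a2* (0.828). *Gm11627* stood in the lists of both *Gli1* and *Foxf1*. Each list holds only the 5 highest of 7097 genes. That *Foxf1* and *Foxf2* share none therefore does not show that their levels ran differently.

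The genotypes were compared within each type, as the study did, to see whether ligand or response changed when TGF-β signaling was lost in the palatal mesenchyme. In all mesenchymal cells none of the 9 genes passed the test, against 0.176% of all genes, with 1 at an unadjusted p under 0.05 and 0 by DESeq2. That gene was *Foxf1*, at 14.1 and 21.5 CPM in the controls and 27.0 CPM in the mutant (0.73 ± 0.32, SE, 2 control libraries against 1, edgeR adjusted p = 0.785). *Ptch1* (0.51 ± 0.32), *Hhip* (0.29 ± 0.35) and *Gli1* (0.15 ± 0.35) lay within 2 SE of 0, each at an adjusted p of 0.999, and so did *Foxf2* (-0.41 ± 0.32), at 117 and 128 CPM in the controls and 85.1 CPM in the mutant. *Gli2* (0.21 ± 0.33), *Gli3* (0.31 ± 0.31), *Smo* (-0.11 ± 0.31) and *Shh* (-1.23 ± 0.87) had the same adjusted p. The fit takes the 1 mutant library to vary as the controls do.

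In the epithelium, *Shh* of the mutant lay below both controls, at 16.3 against 20.3 and 21.9 CPM, within their Poisson intervals (-0.25 ± 0.44, adjusted p = 0.997). None of the 8 genes tested there was called, against 0.0741% of all genes, with 0 at an unadjusted p under 0.05 and 0 by DESeq2. *Gli3* (0.66 ± 0.38), *Ptch1* (0.19 ± 0.29), *Gli1* (-0.06 ± 0.56), *Smo* (-0.20 ± 0.30), *Gli2* (-0.35 ± 0.52), *Hhip* (-0.44 ± 1.09) and *Foxf2* (-0.54 ± 0.74) had the same adjusted p, and *Foxf1* had too few UMIs for the fit. The difference between the mesenchymal and the epithelial change was itself tested, and none of the 9 genes passed (0.19% of all genes did, with 0 of the 9 at an unadjusted p under 0.05 and 0 by DESeq2). With the cells of both gates counted as epithelial, *Foxf2* turned from 0.10 ± 0.59 to -0.91 ± 0.22 in that test and was called (adjusted p = 0.0138). *Ptch1* of the epithelium was at 70.2 CPM in the mutant against 65.4 and 67.9 CPM.

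**Figure D4:**
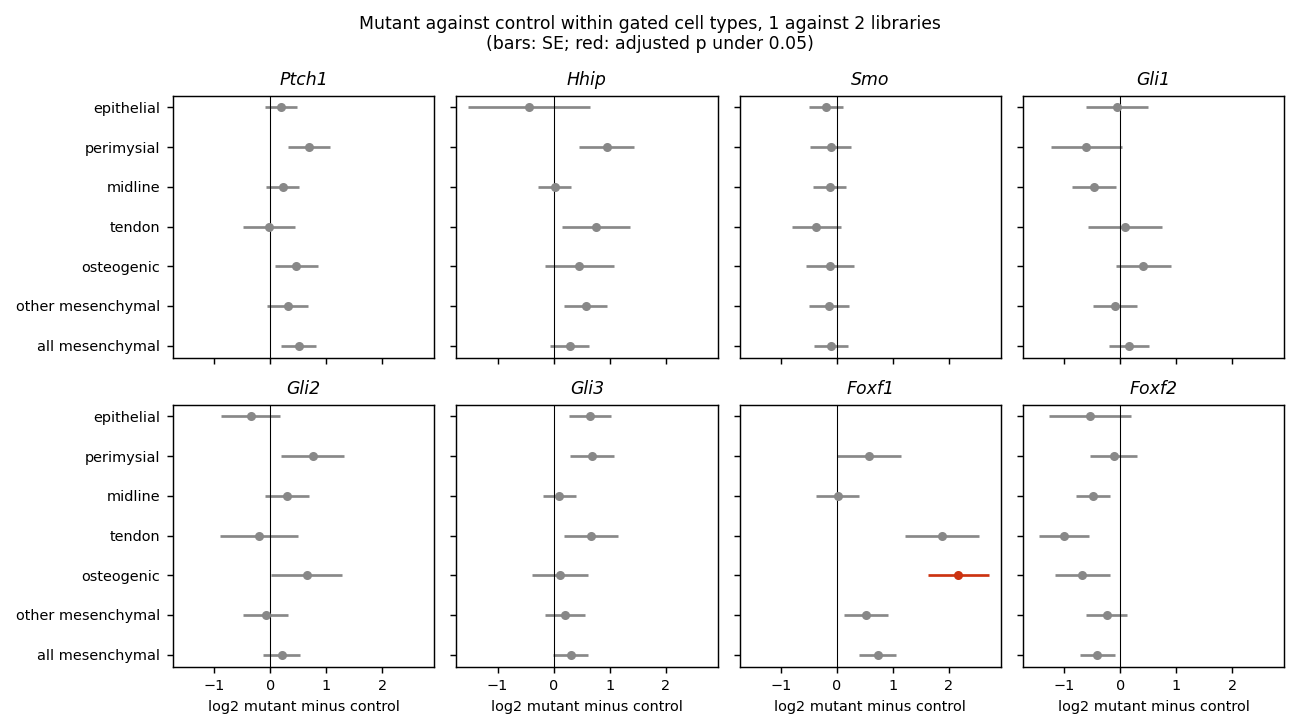
Differences (log2, mutant minus control) of 8 genes within the epithelium, the mesenchymal classes and all mesenchymal cells, with bars for the SE of the edgeR fit of 1 against 2 libraries and red for an adjusted p under 0.05. *Foxf1* in the osteogenic cells (2.17) is the only red point, and *Smo* and *Foxf2* have no value above 0.

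*Foxf1* in osteogenic cells was the 1 change among the 9 genes that passed. It was at 7.56 CPM (95% interval 3.46 to 14.4) in control 1 and 9.50 CPM (2.59 to 24.3) in control 2, from 9 and 4 UMIs, and at 33.9 CPM (27.8 to 40.9) in the mutant, from 108 UMIs. The mutant interval lay above both control intervals, and the difference was 2.17 ± 0.55 (adjusted p = 0.0162, 0.761% of all genes called in either direction and 0.301% higher). It was not called by DESeq2 (2.14 ± 1.09, adjusted p = 1), among genes with at least 50 UMIs (adjusted p = 0.0687) or with 1 more marker required by each lineage gate (1.81 ± 0.55, adjusted p = 0.133). In that last setting the osteogenic gate itself still asked for 2 markers. Against the change in the other mesenchymal cells (0.52 ± 0.39), that in the osteogenic cells was larger by 1.52 ± 0.54 in a test added after its value was seen, which did not pass (adjusted p = 0.625, 0.189% of all genes called).

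Other features of the osteogenic cells differed between the libraries as well. The summed level of their 7 gate markers was 905, 1752 and 2644 CPM, highest in the mutant, with 1, 3 and 0 of them at 0. Osteogenic cells numbered 103, 42 and 356 among 1140, 1945 and 3480 mesenchymal cells. The mutant library thus held the most of them in number, and also the most mesenchymal cells. Mural and progenitor markers were also highest in the mutant's osteogenic cells. The 7 mural markers summed to 63.8, 176 and 262 CPM, with 2, 4 and 2 of them at 0, and the 2 progenitor markers to 27.7, 4.75 and 46.1 CPM, with 1, 1 and 0 at 0. The part of these differences in the level of *Foxf1* was not tested. Of the other genes of the pathway none was called between genotypes in the osteogenic cells. *Ptch1* (0.47 ± 0.38) and *Gli1* (0.41 ± 0.48) lay within 2 SE of 0, as did *Gli2* (0.65 ± 0.64), *Hhip* (0.46 ± 0.61), *Gli3* (0.12 ± 0.50), *Smo* (-0.13 ± 0.43) and *Foxf2* (-0.68 ± 0.49). With SE this wide, a change in these genes is not excluded. *Mn1*, a posterior palate gene, was lower in the mutant there (-1.60 ± 0.44, adjusted p = 0.044).

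*Foxf1* of the mutant was also high in the tendon-like cells, at 36.1 CPM (27.1 to 47.1), against 0 UMIs in control 1, which allows up to 13.7 CPM, and 15.6 CPM (6.28 to 32.2) in control 2. That difference did not pass (adjusted p = 0.533). *Foxf2* moved the opposite way there, at 67.5 CPM against 182 and 107 CPM (-1.01 ± 0.45, adjusted p = 0.999). These were the 2 of 8 genes at an unadjusted p under 0.05 in tendon-like cells, and none passed, against 0.247% of all genes and 0 by DESeq2. *Ptch1*, *Gli1*, *Gli2*, *Gli3*, *Smo* and *Hhip* lay there between -0.37 (*Smo*) and 0.76 (*Hhip*). In the perimysial, midline and other mesenchymal cells none of the genes was called (0.398%, 0.858% and 0.108% of all genes), with 0 at an unadjusted p under 0.05 and 0 by DESeq2 in each. In perimysial cells *Hhip* (0.95 ± 0.49), *Ptch1* (0.69 ± 0.38) and *Gli3* (0.69 ± 0.39) came nearest, at adjusted p of 0.835, 0.899 and 0.936, and *Gli1*, *Gli2*, *Smo*, *Foxf1* and *Foxf2* lay between -0.61 and 0.76. *Hhip* of the perimysial cells was at 10.9 and 37.5 CPM in the controls and 38.4 CPM in the mutant. The mutant thus lay close to control 2, and the difference came from control 1. In midline cells the 8 genes other than *Shh* lay between -0.48 (*Foxf2*) and 0.30 (*Gli2*). In the other mesenchymal cells the same 8 genes lay between -0.24 (*Foxf2*) and 0.57 (*Hhip*), and *Shh* had 2, 8 and 2 UMIs (-2.16 ± 1.31, adjusted p = 1).

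*Gas1* and *Fgf18* were the other genes of the pathway and its forkhead circuit that passed the test between genotypes. In perimysial cells *Gas1* was at 530 and 325 CPM in the controls and 132 CPM in the mutant (-1.63 ± 0.38, adjusted p = 0.00781), and in midline cells at 228 and 189 CPM against 74.0 CPM (-1.41 ± 0.32, adjusted p = 0.00261). *Fgf18* was at 54.6 and 27.3 CPM against 5.49 CPM in perimysial cells (-2.86 ± 0.67, adjusted p = 0.00687), at 21.5 and 12.1 CPM against 3.69 CPM in midline cells (-2.05 ± 0.50, adjusted p = 0.00912) and at 54.7 and 42.4 CPM against 4.68 CPM in tendon-like cells (-3.23 ± 0.68, adjusted p = 0.003). The mutant level lay below both controls in every one of these. The perimysial and tendon-like values of the mutant rest on 4 and 7 UMIs of *Fgf18*. Over all mesenchymal cells neither passed the test, with *Gas1* at 259 and 202 CPM against 90.8 CPM and *Fgf18* at 27.1 and 16.3 CPM against 5.45 CPM. *Mn1* was lower in the midline cells (-1.36 ± 0.32, adjusted p = 0.00469). Marker levels also differed between the libraries in these cells. The summed gate markers of the mutant lay below both controls in perimysial and midline cells and between them in tendon-like cells. The summed gate markers were 742, 779 and 528 CPM in perimysial cells, 826, 985 and 734 CPM in midline cells and, for *Scx*, 164, 274 and 245 CPM in tendon-like cells. The 8 epithelial markers summed to 81.9, 29.0 and 89.2 CPM in perimysial cells, highest in the mutant, with 1, 3 and 3 of them at 0. In midline cells they summed to 86.0, 42.9 and 14.7 CPM (0, 0 and 2 at 0) and in tendon-like cells to 109, 55.8 and 25.4 CPM (2, 4 and 1 at 0), lowest in the mutant. The 10 myogenic markers were lowest in the mutant in all 3 classes, at 128, 34.1 and 16.5 CPM in perimysial cells with 2, 3 and 5 at 0. The part of these levels in the changes of *Gas1* and *Fgf18* was not tested.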

How the data were processed

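Soft palate cells of 2 control libraries and 1 mutant library were analysed. Per the file headers the authors deposited raw UMI counts per gene and barcode from Cell Ranger 4.0.0, while their processing notes also name Cell Ranger 3.1.0 and build mm10. Totals ranged from 22624711 to 63505144 UMIs per library. The filters asked for 500 detected genes or more and a mitochondrial share of no more than 10%, and the highest Scrublet scores (scanpy 1.11.5) were left out at 0.8% per 1000 barcodes, 48, 124 and 564 barcodes. This left 2069, 3697 and 7547 cells with median depths of 8190, 5218 and 5048 UMIs.

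A cell was epithelial with UMIs of at least 3 of 8 markers, mesenchymal with 2 of 6, and in no class if it passed several lineage gates (298, 291 and 704 cells). The subtypes needed 2 markers, tendon-like cells 1 (*Scx*), and dividing cells 3. Mesenchymal cells that passed several subtype gates were left out of the subtypes. UMIs were summed by type and library. Genes with at least 10 UMIs were fitted by edgeR 4.0.16 (R 4.3.3; quasi-likelihood F test, TMM scaling, Benjamini-Hochberg over all genes of a fit, threshold 0.05). Cell types were compared with the library as a block, because each library holds both types (2 residual degrees of freedom), and genotypes with 1 residual degree of freedom. Types under 20 cells in a library were not fitted. Whether the 3 libraries came from separate embryos is not given, so p-values speak for these libraries only. In edgeR the variance of a gene is drawn partly from all genes of the fit, and the SE was derived from the F statistic. Neither the p-values nor the SE are thus the bare spread of a gene between libraries. Intervals are exact Poisson or Clopper-Pearson intervals at 95% and cover counting error only. When tested on simulated data, the fit between epithelium and mesenchyme found 72 of 100 genes changed by 1 and 97 of 100 changed by 2 on the log2 scale (16335 genes), and that between genotypes in mesenchymal cells 54 and 100 of 100 (15934 genes). False calls numbered 11 and 6. The changed genes were drawn from those with many UMIs, with the same dispersion for all genes. These rates therefore do not extend to genes with few UMIs.

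The alternatives were library size scaling, DESeq2 1.42.0, no filter on low counts or at least 50 UMIs, at least 200 genes with no mitochondrial limit, no doublet removal, 1 more marker for each lineage, mesenchymal cells that pass 1 other gate counted in that other lineage, no block, and each library left out. Robust variance squeezing and the comparison of genotype changes in osteogenic against other mesenchymal cells were added after seeing the data. Values of single genes under the alternatives were taken for the 9 genes alone, not for genes of the other lists. The 9 genes, the gene lists and the markers were chosen with earlier results of these data known. The rule was to name all 9 genes in every comparison that tested them, and genes of the other lists where they passed. In some genotype comparisons genes that did not pass are given by their range, the comparisons of genotype changes name only the genes they turn on, and some genes of the other lists are not reported here. Coordinates are from GENCODE on GRCm38, and upstream sequences from RefSeq.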

Additional observations from a re-analysis of the deposited data

How the results depend on the processing

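Of the 9 genes, 8 differed between epithelium and mesenchyme and 4 with cells of both gates counted as epithelial, and leaving out a library gave 6 to 8. Without a replicate block the numbers called were 6 between epithelium and mesenchyme, 1 in osteogenic and 0 in perimysial, midline and dividing cells. DESeq2 called 1 in midline, 3 in osteogenic and 1 in dividing cells. In osteogenic cells leaving out a library gave 2 to 5 of 9, with 2 left without the mutant library. In dividing cells 5 were called by library size, 4 with at least 50 UMIs, 4 with at least 200 genes, and 1 to 5 when a library was left out, 5 without control 1. In the main fits 36.2% of all genes were called between epithelium and mesenchyme and 19.7% in dividing cells. The shares of all genes under the alternatives are not reported here. A changed count of the 9 genes can therefore not be told apart from a changed rate over all genes. *Foxf1* of osteogenic cells was the 1 genotype call, and the number was 0 by DESeq2, with at least 50 UMIs and with 1 more marker for each lineage gate. With the cells of both gates counted as epithelial, 1 gene was called in the comparison of genotype changes between mesenchyme and epithelium, *Foxf2*, whose value reversed to -0.91 (adjusted p = 0.0138). Averaging the CPM of single epithelial cells, in place of summing their UMIs, gave *Shh* a mean over the 3 libraries of 23.4 CPM against 19.5 CPM. The share of *Krt6a*-negative cells with *Shh* was 16.2%, 13.5% and 9.01% unthinned and 3.17% and 0.905% in control 2 and the mutant at 1000 UMIs. The cause was not tested except where fewer cells or UMIs give it. No paired analysis of the genotypes was possible, because there was 1 mutant library and the labels match it to no control. Without a control, a genotype value had no test, and *Foxf1* of osteogenic cells was 1.96 without control 1 and 2.28 without control 2. Of 1481 further values, 1413 kept their side of the threshold or, where there was no test, stayed within the spread between the controls. This share does not measure how firm the calls are, since many values had no call to lose. Among the 1481, 626 came from comparisons of mutant and control, where only *Foxf1* of osteogenic cells had been called. A call was lost in 43 of the 1481. A change of sign in a value that was never called was not counted as a change. *Foxf1* of osteogenic against other mesenchymal cells, for example, was 0.20 and fell as low as -0.81, not called in any setting.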
